A study of Mus musculus with 12 samples.

Results

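The 10 genes described here, Axl, Pdgfrb, Ngfr, Col1a1, Serpinf1, Fbln1, S100a6, Tgfb1i1, Id3 and Sox9, were listed as markers of a mesenchymal-like, invasive or dedifferentiated state of melanoma. Whether each gene marks such a state in these cells was not tested. They are 10 of the 55487 genes in the count tables. They were picked as markers that were higher where pigment genes were lower, or higher in all replicate pairs, in these same libraries. The members were thus selected on the measured shOSGEP to shCtr changes in total RNA, in footprints and in their ratio, and these changes are given as a description with no test. The label did not hold for all of them: Sox9, Ngfr and Fbln1 were not higher in all pairs in total RNA and were lower in pair 1, the pair with the lowest pigment genes.

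The data came from B16F10, a mouse melanoma line that makes pigment, in which total RNA and ribosome-protected fragments (RPF, or footprints) were both sequenced. One set of cells carried a control hairpin RNA (shCtr) and the other hairpin number 2 against Osgep (shOSGEP), both delivered by lentivirus, and Osgep encodes the enzyme that places t6A on tRNAs reading codons that start with A. For ribosome profiling, cells were treated with cycloheximide before lysis, and ribosomes were pulled down with a puromycin analogue before the footprints were sequenced. The study's methods do not tie the cycloheximide treatment to the total RNA libraries. The 12 libraries fell into 4 groups of 3 (shCtr and shOSGEP, total RNA and RPF), and all were of 1 cell line and 1 hairpin per genotype. The study's methods state that transductions were done independently for all experiments, and the labels do not say which library came from which.

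Melanoma cells can move between a pigmented state, held by the transcription factors MITF and SOX10, and states with low MITF, in which receptor tyrosine kinases, matrix proteins and neural crest genes are made instead. AXL and PDGFRB are receptors of the low-MITF state, NGFR marks neural crest-like cells, and SOX9 opposes SOX10 in the same lineage. Collagen I, FBLN1 and SERPINF1 are secreted, and S100A6, TGFB1I1 and ID3 act inside the cell.

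Total RNA libraries held 46.7 to 81.1 M (mega) counts and RPF libraries 12.9 to 40.3 M, of which 4.42 to 17.0 M fell on protein-coding genes. The shOSGEP replicate 1 RPF library had the lowest coding count and the lowest coding share, 15.6%, against 29.8% to 48.6% in the other 5. In total RNA, Osgep itself was at 15.0 ± 0.971 CPM (counts per M counts of its library) in the 3 shCtr libraries and had a mean of 4.76 ± 3.62 CPM in the 3 with the hairpin (SD). Its log2 changes were −4.48, −1.18 and −1.17 in pairs 1, 2 and 3, so replicate 1 had the lowest remaining Osgep transcript. Osgep footprints had the opposite order, with 4.87, 3.81 and 2.36 CPM in shOSGEP replicates 1, 2 and 3 and changes of −0.66, −0.92 and −0.98. The 16 interferon response genes summed to 1095 CPM in total RNA of shOSGEP replicate 1 and to 85.2 to 146 CPM in the other 5 libraries. The part of the interferon genes and of the remaining Osgep transcript or footprints in the results below was not tested.

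Across the 10 genes, 7 were higher in shOSGEP total RNA in pair 1 and 7 in pair 2, and all 10 were higher in pair 3. In 3 of 3 pairs, 6 genes were higher (Axl, Tgfb1i1, Col1a1, S100a6, Serpinf1 and Id3), where 17.7% of all 14516 genes tested were. No gene of the 10 was lower in 3 of 3 pairs, against 16.2% of all genes. Without replicate 1, 7 of 10 were higher in both remaining pairs, against 26.9% of all genes. These shares describe how the genes were chosen, and nothing is read from them.

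The median change of the 10 genes in total RNA was 1.58 in pair 1, 0.24 in pair 2 and 0.52 in pair 3 on the log2 scale, where the medians of all genes were 0.0077, 0.010 and 0.0016. In RPF the medians of the 10 genes were 2.16, 0.14 and 0.48, and 3 genes were higher in 3 of 3 pairs (15.6% of 13529 genes tested). Only Fbln1 was lower in 3 of 3 pairs in RPF (15.2% of genes). No gene in either table was called at an adjusted p of 0.05 by the quasi-likelihood test of edgeR, and 1.78% of genes in total RNA and 1.03% in RPF had an unadjusted p under 0.05. DESeq2 called 8 genes in total RNA and 1 in RPF. The median fitted change of the 10 genes was 1.09 in total RNA and 1.84 in RPF, and without the shOSGEP replicate 1 library it was 0.22 and −0.093.

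**Figure D1:**
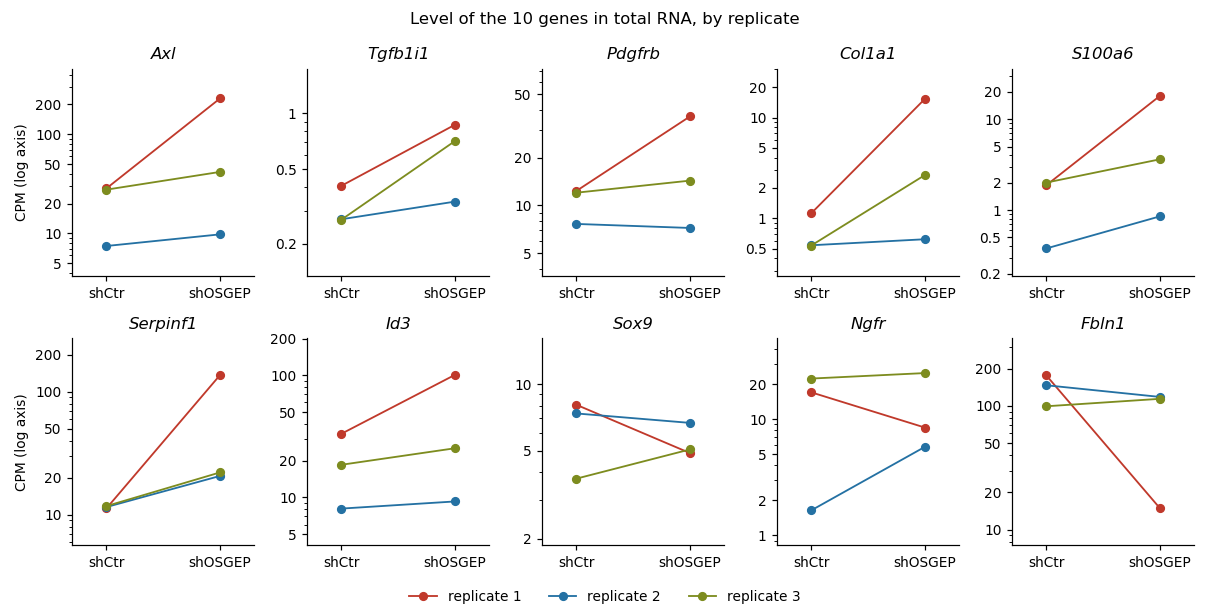
Level of each of the 10 genes in total RNA, in CPM on a log axis, in shCtr and shOSGEP libraries. Points are single libraries and lines join the libraries of one replicate number. The shOSGEP replicate 1 library was the highest of the 6 for Axl, Tgfb1i1, Pdgfrb, Col1a1, S100a6, Serpinf1 and Id3, and the lowest for Fbln1.

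**Figure D2:**
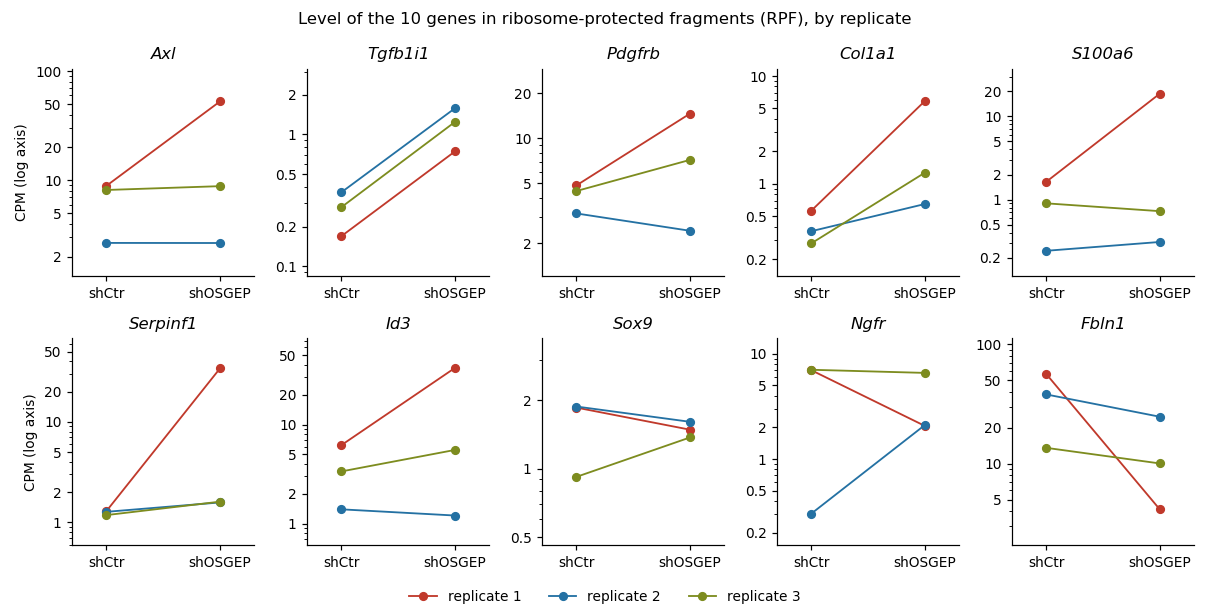
Level of each of the 10 genes in RPF, in CPM on a log axis, drawn as for total RNA with 1 point per library and a line per replicate number. The lines of Tgfb1i1 were nearly parallel, with changes of 1.76, 1.92 and 1.90, while those of Ngfr crossed.

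Axl (ENSMUSG00000002602, chromosome 7, 25757273 to 25788705, minus strand, GRCm38) encodes a receptor tyrosine kinase of the TAM family, which binds GAS6. Its total RNA measured 28.4, 7.48 and 27.6 CPM in shCtr replicates 1, 2 and 3 and 230, 9.79 and 41.7 CPM in the shOSGEP libraries of the same numbers. Every shOSGEP library exceeded its own shCtr partner, but the groups overlapped, because both replicate 2 libraries lay below all the others. The ratio of each pair was 8.07 (95% counting interval 7.67 to 8.49), 1.31 (1.16 to 1.48) and 1.51 (1.41 to 1.61). In RPF, shCtr libraries held 8.90, 2.67 and 8.15 CPM and shOSGEP libraries 52.8, 2.66 and 8.84 CPM. The footprint change was thus seen almost wholly in pair 1, with log2 values of 2.56, −0.0026 and 0.12. Its fitted log2 change was 2.14 (SE 1.08) for total RNA, and 0.27 without the shOSGEP replicate 1 library. For RPF it was 1.69 (SE 1.03), and −0.21 without that library.

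Pdgfrb (ENSMUSG00000024620, chromosome 18, 61045150 to 61085061, plus strand, GRCm38) encodes the beta receptor for platelet-derived growth factor, a kinase typical of mesenchymal cells. Total RNA held 12.3, 7.66 and 12 CPM in shCtr and 36.3, 7.22 and 14.3 CPM in shOSGEP. As for Axl, replicate 2 was lowest in both genotypes and pair 1 gave most of the difference, and the groups overlapped. RPF held 4.85, 3.15 and 4.45 CPM in shCtr and 14.6, 2.41 and 7.18 CPM in shOSGEP. Log2 changes were 1.55, −0.084 and 0.25 for total RNA, and 1.58, −0.37 and 0.68 for RPF. The fitted change in total RNA was 0.85 (SE 0.56), and 0.0039 without the shOSGEP replicate 1 library.

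Ngfr (ENSMUSG00000000120, chromosome 11, 95568818 to 95587735, minus strand, GRCm38), the low-affinity neurotrophin receptor, did not share this pattern. Its total RNA was 17.0, 1.64 and 22.3 CPM in shCtr and 8.45, 5.76 and 24.8 CPM in shOSGEP. Replicate 1 was lower in shOSGEP, replicate 2 higher, and replicate 3 nearly level. The ratio of each pair was 0.498 (95% counting interval 0.448 to 0.553), 3.52 (2.80 to 4.45) and 1.11 (1.03 to 1.21), so the opposite directions of pairs 1 and 2 lay beyond counting error. RPF followed the same order, with 6.99, 0.303 and 7.05 CPM in shCtr and 2.06, 2.11 and 6.58 CPM in shOSGEP. The RPF ratio of pair 2, 6.95 (2.83 to 22.1), rested on 5 reads in shCtr and 68 in shOSGEP. The fitted change was −0.067 (SE 0.91) in total RNA, and its sign turned in 7 of 13 settings tried.

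Ligands and relatives of these receptors were measured from a list of 9 genes, 6 of which passed the filter on low counts. In total RNA 3 of the 6 were higher in 3 of 3 pairs and 0 were lower (17.7% and 16.2% of all genes). Their median fitted change was 0.24, beside 0.021 over all genes. The AXL ligand Pros1 measured 36.4 ± 5.02 CPM in the shCtr and 49.2 ± 18.0 CPM in the shOSGEP libraries (SD, n = 3), with pair changes of 0.73, 0.16 and 0.27. Its other ligand, Gas6, had 0 to 3 reads in each total RNA library. The sister receptors differed from Axl, with pair changes of −1.13, −0.53 and 0.14 for Tyro3 and −0.42, 0.16 and 0.27 for Mertk. Among PDGF genes, the ligand Pdgfa changed by 1.33, 0.039 and 0.64 and the alpha receptor Pdgfra by 1.01, 0.34 and 0.25. Pdgfb (−0.36, 0.51 and −0.24) had no common direction, and Pdgfc was at 0 in 5 of the 6 total RNA libraries.

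Col1a1 (ENSMUSG00000001506, chromosome 11, 94936224 to 94953042, plus strand, GRCm38) encodes the alpha 1 chain of type I collagen. Levels were low, at 1.12, 0.540 and 0.537 CPM in shCtr and 15.3, 0.620 and 2.69 CPM in shOSGEP total RNA. The shOSGEP replicate 2 library, at 48 reads, lay inside the shCtr range, and the others lay above it. The ratio of each pair was 13.6 (95% counting interval 10.6 to 17.8), 1.15 (0.712 to 1.88) and 5.00 (3.29 to 7.89), so pair 2 did not differ beyond counting error. In RPF, 0.563, 0.364 and 0.280 CPM in shCtr faced 5.86, 0.650 and 1.27 CPM in shOSGEP. All 3 shOSGEP footprint values lay above all 3 shCtr values, as in 2.43% of genes, on 6 to 71 reads per library, and no gene of the 10 lay wholly below (2.64%). Its fitted change was 3.07 (SE 1.11) in total RNA and 1.15 without the shOSGEP replicate 1 library.

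The partner chain of the same fibril went the other way in replicate 1. Col1a2, which encodes the alpha 2 chain, held 3.42, 3.44 and 1.47 CPM in shCtr against 1.26, 5.36 and 2.28 CPM in shOSGEP total RNA, with changes of −1.42, 0.64 and 0.62. Serpinh1, the collagen chaperone, was abundant and nearly level, at 1061 CPM in shCtr and 1168 CPM in shOSGEP on average, with changes of 0.15, −0.11 and 0.43. Fn1, which encodes fibronectin, was higher in all pairs, at 224, 179 and 221 CPM in shCtr and 801, 277 and 288 CPM in shOSGEP. Its 3 shOSGEP values lay above its 3 shCtr values in total RNA, as did those of 4.0% of all genes.

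Serpinf1 (ENSMUSG00000000753, chromosome 11, 75409769 to 75422701, minus strand, GRCm38) encodes pigment epithelium-derived factor, a secreted protein of the serpin family. Its shCtr libraries were closely alike, at 11.2, 11.5 and 11.7 CPM in total RNA, and the shOSGEP libraries held 137, 20.7 and 22.1 CPM. It was the only gene of the 10 whose total RNA groups did not overlap (4.0% of genes), and each pair was higher beyond counting error. The ratio of each pair was 12.2 (95% counting interval 11.2 to 13.2), 1.79 (1.63 to 1.97) and 1.88 (1.70 to 2.08). In RPF the values were 1.30, 1.27 and 1.18 CPM in shCtr and 34.0, 1.58 and 1.61 CPM in shOSGEP. These groups did not overlap either (2.43% of genes lay above in RPF). The counting intervals of pair 2 (0.733 to 2.17) and pair 3 (0.936 to 1.98) reached down past 1. The fitted change in total RNA was 2.38 (SE 0.76), and 0.88 without the shOSGEP replicate 1 library.

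Fbln1 (ENSMUSG00000006369, chromosome 15, 85205949 to 85286535, plus strand, GRCm38) encodes fibulin 1, a glycoprotein of basement membranes and elastic fibres, and ran against the others. Total RNA held 177, 147 and 99.3 CPM in shCtr and 14.9, 118 and 114 CPM in shOSGEP. The replicate 1 ratio was 0.0843 (95% counting interval 0.0789 to 0.0901), while replicates 2 and 3 gave 0.805 and 1.15. RPF held 56.4, 38.0 and 13.6 CPM in shCtr and 4.13, 24.7 and 10.0 CPM in shOSGEP, lower in each pair. The groups overlapped in both assays, since shCtr replicate 3 was below shOSGEP replicate 2. The relative Fbln2 was listed at 0 in 3 total RNA libraries, with 0 to 2 reads in all 6.

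S100a6 (ENSMUSG00000001025, chromosome 3, 90612882 to 90624181, plus strand, GRCm38) encodes calcyclin, a small calcium-binding protein. In total RNA it stood at 1.87, 0.378 and 2.00 CPM in shCtr against 18.0, 0.853 and 3.62 CPM in shOSGEP. Each pair was higher, with ratios of 9.61 (95% counting interval 7.90 to 11.8), 2.25 (1.36 to 3.88) and 1.80 (1.41 to 2.32), and the groups overlapped through the low replicate 2 pair. Footprints differed beyond counting error in pair 1 alone, with 1.63, 0.242 and 0.901 CPM in shCtr and 18.7, 0.310 and 0.726 CPM in shOSGEP. In RPF, the ratio of replicate 2 was 1.28 (0.368 to 5.58), on 4 reads in shCtr and 10 in shOSGEP, and that of replicate 3 was 0.805 (0.484 to 1.32). The fitted RPF change of 2.80 (SE 1.53) became −0.85 without the shOSGEP replicate 1 library.

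Of 7 listed S100 relatives, 1 was higher and 1 lower in 3 of 3 pairs in total RNA (17.7% and 16.2% of all genes). Their median fitted change was −0.051. S100a4, often raised in metastatic cells, changed by −2.27, −0.16 and 0.79. S100a10, the most abundant of the list, had mean levels of 65.0 CPM in shCtr and 62.1 CPM in shOSGEP.

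Tgfb1i1 (ENSMUSG00000030782, chromosome 7, 128246812 to 128255699, plus strand, GRCm38) encodes HIC-5, an adaptor of focal adhesions related to paxillin. It was the least abundant of the 10 in total RNA, at 0.408, 0.270 and 0.269 CPM in shCtr and 0.868, 0.336 and 0.710 CPM in shOSGEP. Each pair was higher in shOSGEP on 13 to 56 reads per library, but the interval of pair 2 (0.634 to 2.52) included 1 and the groups overlapped. Footprints differed more evenly than for any other gene of the 10, at 0.169, 0.364 and 0.280 CPM in shCtr and 0.743, 1.58 and 1.24 CPM in shOSGEP. All shOSGEP footprint values exceeded all shCtr values (2.43% of genes). The ratios were 4.40 (95% counting interval 1.10 to 25.2), 4.34 (1.86 to 12.4) and 4.44 (2.41 to 8.71), on 3, 6 and 14 reads in shCtr and 9, 51 and 48 in shOSGEP. The fitted RPF change of 2.13 (SE 0.63) ranged from 1.86 to 2.35 over 13 settings, which included leaving out each library.

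Of 12 listed focal adhesion genes, 3 were higher and 1 lower in 3 of 3 pairs in total RNA (17.7% and 16.2% of all genes). Their median fitted change was 0.16. Pxn, which encodes paxillin, changed by −0.34, 0.14 and −0.20. Tgfb1, whose product gave Tgfb1i1 its name, was at 0.0775 to 0.604 CPM in the 6 total RNA libraries, with pair changes of 0.53, −0.95 and 1.15.

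Id3 (ENSMUSG00000007872, chromosome 4, 136143497 to 136145755, plus strand, GRCm38) encodes an inhibitor of basic helix-loop-helix factors and is a common target of BMP signalling. Total RNA held 33.2, 8.11 and 18.5 CPM in shCtr and 101, 9.28 and 25.3 CPM in shOSGEP. Each pair was higher, with ratios of 3.04 (95% counting interval 2.89 to 3.20), 1.14 (1.02 to 1.29) and 1.37 (1.26 to 1.49), though the replicates differed more from each other than the members of pairs 2 and 3 did. RPF held 6.20, 1.39 and 3.36 CPM in shCtr and 37.3, 1.21 and 5.55 CPM in shOSGEP. Both groups overlapped, and the fitted changes of 1.18 (SE 0.88) and 1.99 (SE 1.16) turned to −0.22 and −0.13 without the shOSGEP replicate 1 library. Id1 gave pair changes of 2.39, −0.63 and 0.35 in total RNA and the more abundant Id2 −0.97, −0.18 and −0.013, while Id4 was at 0 in all 6 total RNA libraries.

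Sox9 (ENSMUSG00000000567, chromosome 11, 112782224 to 112787760, plus strand, GRCm38) encodes a transcription factor of neural crest and cartilage. Its total RNA was 8.06, 7.37 and 3.74 CPM in shCtr and 4.88, 6.68 and 5.07 CPM in shOSGEP, and its RPF 1.86, 1.88 and 0.921 CPM against 1.49, 1.61 and 1.37 CPM. Pairs 1 and 2 were lower and pair 3 higher in both assays. The shOSGEP values lay within the shCtr range in both. Its fitted changes were −0.21 (SE 0.34) for total RNA and, for RPF, −0.051 (SE 0.49), each smaller than its error. Sox10, which is far more abundant, held 555, 570 and 619 CPM in shCtr against 417, 543 and 546 CPM in shOSGEP, so that all shOSGEP values lay below all shCtr values (3.09% of genes in total RNA).

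**Figure D3:**
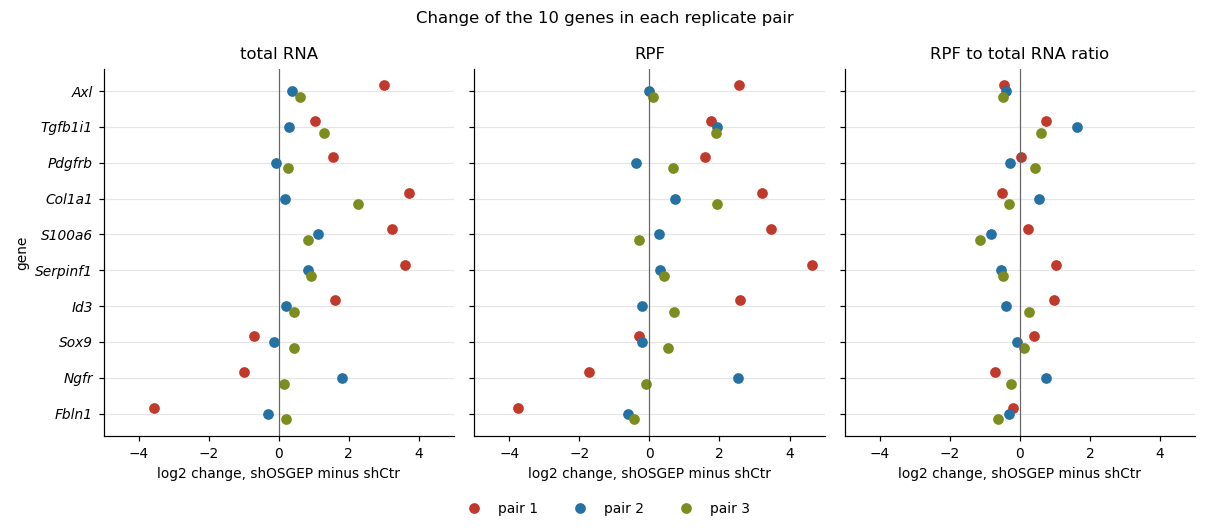
Change of each of the 10 genes in every replicate pair, as log2 CPM of shOSGEP minus that of shCtr, in total RNA, in RPF and in their ratio. Each point is 1 pair. In pair 1, changes in total RNA ran from −3.56 for Fbln1 to 3.73 for Col1a1, and pairs 2 and 3 lay nearer 0 for most genes.

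Over the 6 total RNA libraries, log2 CPM of Axl was correlated with that of Pdgfrb (Pearson r 0.991), S100a6 (0.991) and Id3 (0.974), and replicate 2 was low for these 4 genes in both genotypes. Serpinf1 and Fbln1 gave an r of −0.956, and Ngfr and Serpinf1 of 0.0047. These values are over 6 libraries of 1 line that share the replicate 1 difference, and are a description. The 5 protein-coding genes whose scaled profile was most like the mean of the 10 over the 12 libraries were Trim14 (r 0.982), Lurap1l (0.977), Loxl1 (0.970), Ahnak (0.970) and Chac1 (0.967). Of the 10 genes themselves, Id3 (0.953), Col1a1 (0.943) and S100a6 (0.940) lay closest to that mean, and Sox9 (−0.099) and Fbln1 (−0.693) farthest.

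Promoter sequence was compared for the genes with an entry in the RefSeq table (GRCm38.p6), which were 6 of the 10: Axl, S100a6, Id3, Serpinf1, Ngfr and Fbln1. The 250 bases before the start in that table are shown for 4 genes that were higher together and for Fbln1, which was lower in replicate 1. Each is read 5′ to 3′ on the strand of its gene. These starts differ from the gene coordinates given above, which come from GENCODE. By those coordinates the Id3 window lay wholly inside its gene. The windows of S100a6, Serpinf1, Ngfr (not shown) and the second start of Fbln1 (not shown) lay partly inside theirs. Windows were chr7:25788734-25788983 (minus) for Axl, chr3:90612644-90612893 (plus) for S100a6, chr4:136143572-136143821 (plus) for Id3, chr11:75422624-75422873 (minus) for Serpinf1 and chr15:85205699-85205948 (plus) for the first of 2 annotated starts of Fbln1. Capitals mark a match, on either strand, to an E-box (CANNTG, read by MITF, SNAI2 and other helix-loop-helix or zinc finger factors), an AP-1 site (TGANTCA), an interferon element (GAAA, any 2 bases, GAAA), a TEAD site (GGAATG) or a GC box (GGGCGG).
Axl: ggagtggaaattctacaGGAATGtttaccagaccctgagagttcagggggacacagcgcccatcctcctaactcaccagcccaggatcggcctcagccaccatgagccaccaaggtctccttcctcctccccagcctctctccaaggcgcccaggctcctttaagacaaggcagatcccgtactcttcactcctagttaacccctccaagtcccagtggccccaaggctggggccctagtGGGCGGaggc
S100a6: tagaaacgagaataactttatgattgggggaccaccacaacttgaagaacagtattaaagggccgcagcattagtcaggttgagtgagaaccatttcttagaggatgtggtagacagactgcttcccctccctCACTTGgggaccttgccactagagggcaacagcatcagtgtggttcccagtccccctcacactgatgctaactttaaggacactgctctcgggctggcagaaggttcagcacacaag
Id3: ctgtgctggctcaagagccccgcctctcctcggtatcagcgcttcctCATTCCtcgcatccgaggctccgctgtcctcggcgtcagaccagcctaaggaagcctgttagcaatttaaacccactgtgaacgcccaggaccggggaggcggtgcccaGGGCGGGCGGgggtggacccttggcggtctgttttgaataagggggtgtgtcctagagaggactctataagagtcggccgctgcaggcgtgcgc
Serpinf1: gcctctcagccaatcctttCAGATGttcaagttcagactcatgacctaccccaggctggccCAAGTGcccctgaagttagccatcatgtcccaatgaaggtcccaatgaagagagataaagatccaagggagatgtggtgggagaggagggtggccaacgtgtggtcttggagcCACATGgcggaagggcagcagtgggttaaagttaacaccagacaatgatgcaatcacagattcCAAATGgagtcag
Fbln1: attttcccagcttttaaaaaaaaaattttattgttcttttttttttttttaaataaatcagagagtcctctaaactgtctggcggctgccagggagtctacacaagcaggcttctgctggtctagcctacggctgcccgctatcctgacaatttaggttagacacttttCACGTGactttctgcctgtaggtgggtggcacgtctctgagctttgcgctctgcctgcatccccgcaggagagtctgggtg

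Axl held 1 TEAD match near the far end and 1 GC box near the start, and Id3 held 1 TEAD match and 2 GC boxes that overlap each other. Serpinf1 held 4 E-boxes, S100a6 held 1, and Fbln1 held the palindrome CACGTG. Over the 6 genes, E-boxes were found in 4 (66.2% of 32851 promoters), GC boxes in 4 (32.7%), TEAD matches in 2 (12.6%), AP-1 sites in 0 (6.75%) and interferon elements in 0 (2.98%). The GC box count takes in Fbln1 through its other annotated start alone, and the counts are per gene over all its starts, while the shares are per promoter. A match says only that these letters are present, and their absence only that they are not in these 250 bases.

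Levels were ordered per kb of exon in total RNA and per kb of coding sequence in RPF, so that genes could be compared. In shCtr total RNA, Fbln1 was highest at 32.3 ± 8.94 CPM per kb (SD, n = 3), apart from the next gene, Id3, at 11.1 ± 7.05. Serpinf1 (4.88 ± 0.105), Axl (4.21 ± 2.36), Ngfr (3.95 ± 3.11), Pdgfrb (1.95 ± 0.478), Sox9 (1.55 ± 0.561) and S100a6 (1.04 ± 0.661 CPM per kb) followed, each overlapping its neighbour. Col1a1 (0.112 ± 0.0514) and Tgfb1i1 (0.0565 ± 0.0144 CPM per kb) lay apart below them and from each other. In shCtr RPF, Serpinf1 took the eighth place at 0.995 ± 0.0481 CPM per kb of coding sequence, and Tgfb1i1 (0.173 ± 0.0624) stood above Col1a1 (0.0923 ± 0.0334), with ranges that overlapped.

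The ratio of RPF to total RNA in control cells was not itself used to choose the genes, and was tested. The same shCtr libraries are the baseline of the changes that chose them, so the test is not independent of that choice. It asked whether a gene has more or fewer footprints per transcript read than the typical coding gene, in shCtr cells alone. Of the 10 genes, 6 passed the filter on low counts in both assays (Tgfb1i1, Col1a1, S100a6 and Ngfr did not), and Serpinf1 was the only one called, beside 9.38% of all coding genes in either direction. Its log2 ratio was −1.67, −1.70 and −1.83 in shCtr replicates 1, 2 and 3 relative to the median coding gene, and −1.80 in the fit (SE 0.23, edgeR adjusted p = 0.00292, lower in 3 of 3 samples). Lower ratios were called for 4.76% of 10633 coding genes and higher ratios for 4.62%. Over 9 alternatives the adjusted p of Serpinf1 ran from 2.51e-09 with DESeq2 to 0.810 with edgeR in the shOSGEP libraries, where the ratio was −0.92, and it was called in 7 of the 9. Without shCtr replicate 3 its edgeR adjusted p was 0.0509 and its ratio −1.76.

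The other 5 genes were not called in this fit, which did not pair RPF with total RNA by replicate number. Fitted ratios were −1.06 for Id3 (SE 0.58, edgeR adjusted p = 0.270), −0.68 for Sox9 (SE 0.40, 0.298), −0.58 for Fbln1 (SE 0.44, 0.427), −0.28 for Axl (SE 0.54, 0.775) and 0.041 for Pdgfrb (SE 0.28, 0.943). Relative to the median coding gene, ratios in shCtr replicates 1, 2 and 3 were −1.03, −1.07 and −1.03 for Id3. They were −0.69, −0.52 and −0.53 for Sox9 and −0.27, −0.55 and −1.47 for Fbln1. For Axl they were −0.29, −0.054 and −0.35, and for Pdgfrb 0.045, 0.15 and −0.019. With the replicate number as a block, Id3 (edgeR adjusted p = 0.00169), Sox9 (0.0481) and Fbln1 (0.0253) were called as well, and calls over all genes went from 997 to 3024. Over 9 alternatives each, the adjusted p ran from 0.00169 to 0.954 for Id3, from 0.0481 to 0.554 for Sox9 and from 0.0253 to 0.613 for Fbln1. Scaled per kb of coding sequence and of exon, Pdgfrb had a log2 ratio of −0.87 (edgeR adjusted p = 0.0316, over 9 alternatives 0.0316 to 0.984), Fbln1 was called again, and Serpinf1 had a ratio of −2.53. For Axl the adjusted p ran from 0.162 to 0.887. Id2 (−1.80), S100a10 (−0.79) and S100a11 (−2.13), relatives of Id3 and S100a6, were called lower, as were Zyx (−1.20) and Tfap2a (−0.65) of the lists, while Cdk14 (1.73) was called higher, with edgeR adjusted p from 0.000661 to 0.0442.

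**Figure D4:**
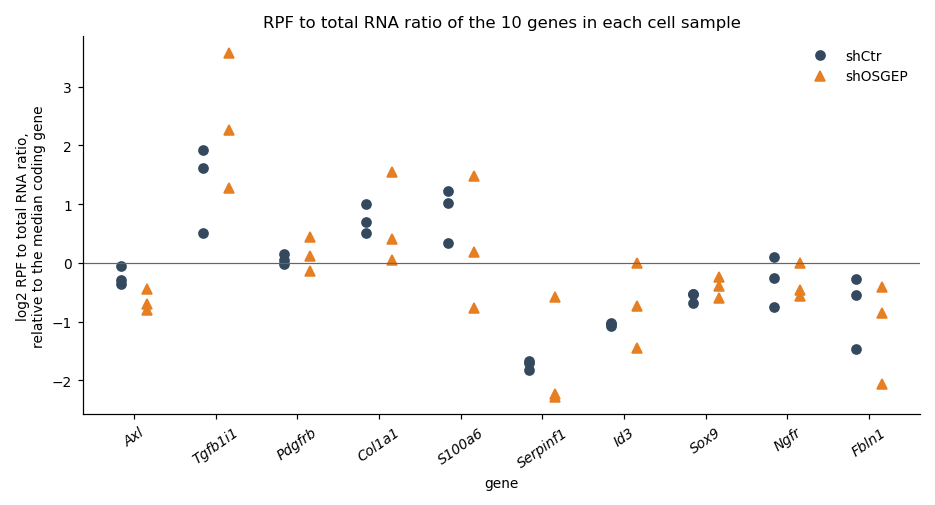
RPF to total RNA ratio of each of the 10 genes in the 3 shCtr (circles) and 3 shOSGEP (triangles) cell samples, as log2 relative to the median coding gene, which is the line at 0. Serpinf1 lay lowest in shCtr, between −1.67 and −1.83. The shOSGEP samples spanned a wider range than the shCtr samples for each gene except Ngfr.

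For the change in ratio the values of the 10 genes lay on both sides of 0. The median fitted change in ratio of the 10 genes was 0.12, with pair medians of 0.12, −0.30 and −0.29 on the log2 scale. Tgfb1i1 alone was higher in 3 of 3 pairs (0.73, 1.64 and 0.60), where 11.6% of 12560 genes were. Axl (−0.45, −0.39 and −0.48) and Fbln1 (−0.18, −0.31 and −0.63) were lower in 3 of 3 pairs, as were 11.2% of genes, and in pairs 2 and 3 the count of lower genes was 4 of 10 beside 29.2% of genes. For Axl the shOSGEP ratios (−0.69, −0.44 and −0.80) lay below the shCtr ratios (−0.29, −0.054 and −0.35), as in 2.31% of genes, and none of the 10 lay above in all samples (2.03% of genes). Serpinf1 had a change of 1.04 in pair 1 and of −0.54 and −0.49 in pairs 2 and 3, and S100a6 one of 0.22, −0.83 and −1.13.

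Codons that start with A (ANN), which tRNAs with t6A read, made up 14.6% to 30% of the coding sequences of the 10 genes. The median over 10587 coding genes was 26.8%, with quartiles of 23.5% and 29.6%. Of the 10 genes, 8 lay under that median. Col1a1 was lowest at 14.6%, below all but 1.24% of coding genes, followed by Tgfb1i1 (18.0%), Id3 (19.5%), Axl (21.4%), Ngfr (22.5%), Fbln1 (23.6%), Sox9 (24.5%) and Pdgfrb (26.0%). Only S100a6 (27.3%) and Serpinf1 (30%) lay over it.

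Gene lists that did not include the 10 were set beside them, with no gene of any list called by edgeR for the change between genotypes. The 10 genes were chosen for their changes, so a larger median for them than for a list is not read as a result. In 3 of 3 pairs, 17.7% of all genes tested were higher and 16.2% lower in total RNA, and 15.6% and 15.2% in RPF. Of 18 pigment genes tested in total RNA, 0 were higher and 5 lower in 3 of 3 pairs, and their medians were −1.96, −0.42 and 0.12 in pairs 1, 2 and 3. Pmel, which forms melanosome fibrils, gave −3.83, −0.54 and 0.24, Tyr, the key enzyme of melanin synthesis, −3.04, −1.21 and 0.24, and Mitf −1.34, −0.19 and 0.024. Dct (−2.99, −0.20 and 0.062), Tyrp1 (−1.99, −0.48 and 0.45) and Mlana (−2.16, −0.36 and −0.022) had the same order, and Gpnmb, the most abundant of the list, gave −1.85, −0.36 and 0.17. In RPF, 10 of 17 were lower in 3 of 3 pairs. In total RNA, all 10 genes were higher in pair 3 (50.3% of all genes), where the pigment median was 0.12. In pair 1, 7 were higher (50.4%), with a pigment median of −1.96. In RPF, 7 of the 10 were higher in pair 3 (49.9%) and 7 in pair 1 (49.3%), with pigment medians of −0.048 and −1.74. The 10 genes were chosen for these changes, so nothing is read from these counts, and a link to pigment genes was not tested.

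Of the collagen and matrix list, in total RNA 11 of 25 were higher in 3 of 3 pairs and 0 lower, with medians of 0.90, 0.065 and 0.25, and in RPF 10 of 23 were higher and 1 lower. Of an invasive phenotype list of 49 genes, 28 were tested, and 6 were higher and 3 lower in 3 of 3 pairs, with medians of 0.72, 0.0043 and 0.082. Its most abundant gene, Tpm1, which encodes an actin-binding tropomyosin, gave 0.84, 0.33 and −0.046. Without both libraries of replicate 1 the median fitted change was 0.12 for matrix genes and 0.042 for the invasive list, from 0.43 and 0.35 with them, and 0.46 for the 10 genes, from 1.09.

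Of 11 tested genes of the mesenchymal transition, 2 were higher and 1 lower in 3 of 3 pairs (17.7% and 16.2% of all genes). Their median fitted change was 0.10. The 2 that were higher, named after their values were seen, encode proteins of contractile cells: Tagln, with mean levels of 0.268 CPM in shCtr and 17.7 CPM in shOSGEP (changes of 7.29, 1.56 and 2.31), and Myl9, with 4.91 and 52.7 CPM (5.04, 0.31 and 0.37). Acta2, smooth muscle actin, did not pass the filter on low counts and went from a mean of 0.0481 to one of 11.5 CPM (8.16, 3.79 and 1.03). Cnn1, a further smooth muscle gene of the list, did not pass it either. Its means were 0.0060 CPM in shCtr and 0.0155 CPM in shOSGEP, with no common direction (1.27, −0.63 and 0). Among the regulators, Snai2 (−0.33, 0.37 and −0.018) and Zeb2 (0.27, 0.048 and −0.030) had no common direction, and Zeb1 was at 0.0510 to 0.270 CPM. Of the cadherins, Cdh2 gave −0.035, 0.11 and 0.17. Cdh1 gave −1.21, −0.54 and −0.34 on only 17 to 51 total RNA reads per library. In RPF, Cdh1 had no common direction (−0.15, 1.64 and −0.78, on 1 to 11 reads). Vim, which encodes vimentin, was already abundant at 1555 CPM in shCtr and gave −0.53, 0.084 and −0.094. TGF-beta and BMP genes had a median of 0.16 (22 tested, 4 higher and 1 lower), and neural crest genes one of −0.24 (10 tested, 1 higher and 1 lower). Their most abundant genes were Bmpr2 (0.63, −0.022 and 0.12) and Ets1 (−1.68, 0.077 and −0.31), and Tln1 (0.46, −0.11 and −0.083) was that of the focal adhesion list.

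**Figure D5:**
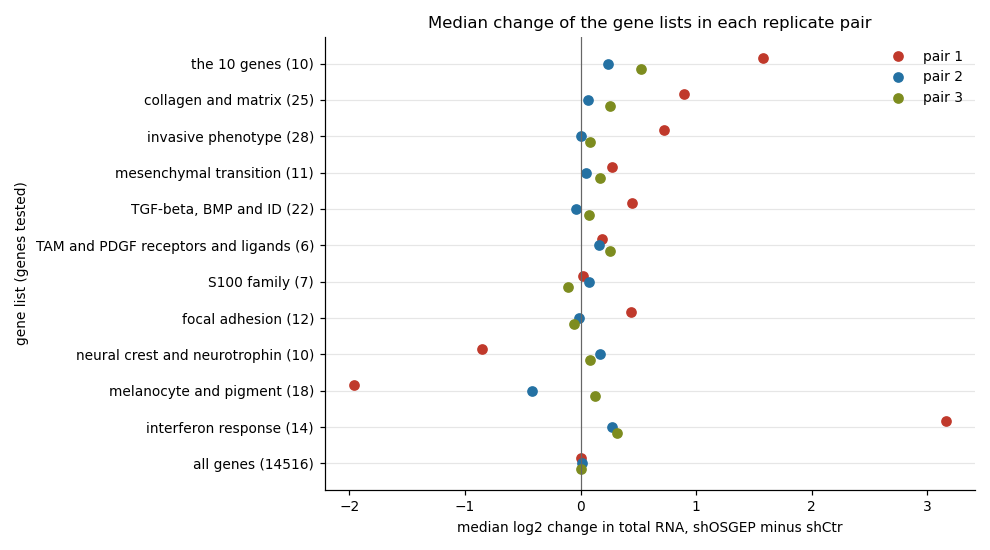
Median change in total RNA of the 10 genes, of the gene lists and of all genes in each replicate pair, as log2 CPM of shOSGEP minus that of shCtr. Numbers in brackets are genes tested. Pair 1 held the largest median in size for the 10 genes, the collagen and matrix list, the pigment list and the interferon list, and the medians of all genes were 0.0077, 0.010 and 0.0016.

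Interferon response genes differed in the same pair, with medians of 3.16, 0.28 and 0.32. In 3 of 3 pairs, 9 of 14 tested were higher and 0 lower (17.7% and 16.2% of all genes). The median fitted change of the list was 2.27, and −0.087 without the shOSGEP replicate 1 library. In bulk libraries, more cells of a type and more RNA per cell cannot be told apart. Markers of other cell types were low. The 10 fibroblast markers summed to 10.3 to 13.3 CPM in shCtr and to 27.9, 13.4 and 13.7 CPM in shOSGEP total RNA, with 4 to 7 of them at 0 in each library, and Col3a1 and Thy1 were at 0 in all 6. Postn and Pdgfra made up most of that sum, with 4.98 and 4.01 CPM in shCtr. Immune markers (8 genes, 2.70 to 5.66 CPM, led by Cd68), endothelial markers (6 genes, 1.42 to 5.41 CPM, led by Vwf) and keratinocyte markers (7 genes, 0.0338 to 0.124 CPM, led by Dsg3) were lower still, against 5173 to 25616 CPM for the pigment genes. In RPF the fibroblast markers summed to 5.82 to 12.2 CPM in shCtr and to 17.0, 6.69 and 15.4 CPM in shOSGEP, and the keratinocyte markers to 4.46 CPM in shOSGEP replicate 1 and to 0.648 to 1.07 CPM in the other 5. The part of these markers in the results was not tested.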

How the data were processed

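The authors deposited 1 count table for total RNA and 1 for RPF, with raw counts for each Ensembl gene and no normalisation. Per the labels, reads were trimmed with Trim Galore 0.6.6 and Cutadapt and aligned with STAR. The labels name both GRCm38 and GRCm39, so the build behind the counts is uncertain, and use of strand and of reads with several matches is not given in the sources used here. The study's methods describe Salmon quantification for total RNA sequencing of such cells without tying it to this table, and values from it would be rounded estimates. For footprints they keep perfect matches to the coding transcriptome, but 15.6% to 48.6% of the counts in the deposited RPF table fell on coding genes, so that step alone cannot have made it. The methods also describe mapping the footprints again, to the GRCm38 genome with STAR, for the stalling analysis, without tying that to this table. GENCODE M21 supplied symbols and GRCm38 coordinates for 55141 gene IDs and lacked 346. Exon and coding lengths were taken from the same release.

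The 10 genes and all gene lists were chosen with earlier results of these data known. Besides the 10 genes and Osgep, the text names their partner genes, listed genes past the adjusted threshold, the most abundant gene of each list and the 5 genes with the most similar profile. A gene that this rule names is not reported here. Col3a1, Thy1, Tagln, Myl9, Acta2 and Cnn1 were named after their values were seen.

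Counts were analysed in R 4.3.3 with edgeR 4.0.16 (filterByExpr, TMM factors, quasi-likelihood test, Benjamini-Hochberg adjustment over all genes tested, threshold 0.05). Each assay was fitted alone for genotype. The change in ratio was the interaction of assay and genotype over 12 libraries, and the ratio in control cells was a fit of assay over 6 shCtr libraries for coding genes. CPM used the TMM library sizes, log2 CPM a prior count of 2, and pair changes are differences in log2 CPM. Counting intervals are exact binomial at 95%. They cover counting error only, because reads copied by PCR do not each stand for 1 molecule. Scripts were tested on simulated data.

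Replicate numbers came from the labels. For each number, the deviations of its shCtr and shOSGEP libraries from the mean of their own group were correlated across genes. The r for numbers 1, 2 and 3 was 0.52, 0.54 and 0.29 with total RNA, and with RPF 0.59, 0.51 and 0.66. All were over 0.1, so the numbers were taken as pairs and a replicate block was fitted as an alternative. Other alternatives were RLE size factors, no filter on low counts, DESeq2 1.42.0, coding genes only, length offsets, the shOSGEP libraries, and leaving out libraries, and a prior count of 0.5 for pair changes. A block without both libraries of replicate 1 was added after seeing the data. Replicates of a group differed beyond sampling noise, with a chi-square per degree of freedom of at least 82.1.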

Additional observations from a re-analysis of the deposited data

How the results depend on the processing

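With RLE size factors, each count of calls stayed within 1.5 times that reported. In total RNA, 0 calls by edgeR (259 genes at an unadjusted p under 0.05) became 8 with DESeq2, 1 with the replicate block and 1 with the block without both libraries of replicate 1. In RPF, 0 calls (139 unadjusted) became 229 with no filter on low counts, 1 with DESeq2 and 14 with the block without both libraries of replicate 1, and the replicate block alone gave 0 (549 unadjusted). For the ratio, 0 calls (17 unadjusted) became 1 with the block without both libraries of replicate 1. Leaving out 1 library at a time gave 0 calls in each of these comparisons. In control cells, 997 calls became 1824 with DESeq2, 3024 with the replicate block, 5061 with coding and exon length offsets and 44 in the shOSGEP libraries, and leaving out shCtr replicate 1, 2 or 3 gave 145, 214 and 198. There Pdgfrb turned from 0.041 to −0.031 with no filter and to −0.87 with length offsets, and ran from −0.016 to 0.066 when 1 replicate was left out. For all of these, the cause was not tested. Depth limited Tgfb1i1, S100a6, Ngfr and Col1a1, which rested on as few as 3, 4, 5 and 6 footprint reads.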
